A study of Mus musculus with 16 samples.

Results

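The question here was how far the effect of an Aire lineage label on gene expression depends on the surface level of MHC class II. Medullary epithelial cells of the mouse thymus (mTEC) were sorted into 4 populations for RNA sequencing, and all 16 libraries of the series, 4 per population, were used. The populations were RFP+ MHCIIlo, RFP- MHCIIlo, RFP+ MHCIIhi and RFP- MHCIIhi cells, gated as DAPI-;CD45-;EPCAM+. All mice were C57BL6.Aire-CreERT2.Ai14 of mixed sex, aged 5 to 6 weeks, and all received 2 mg tamoxifen 7 days before sorting. Every library came from 12 mice pooled, and the numbers 1 to 4 name biological replicates. RFP+ against RFP- within a gate is called the RFP effect of that gate, and the gate dependence is the RFP effect in MHCIIlo cells minus the RFP effect in MHCIIhi cells. It was computed for the 19617 of 43432 genes that passed a low-count filter, and the genes were sorted by the signs of the 2 effects.

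Aire is a transcriptional regulator through which mTEC express antigens of many peripheral tissues, so that developing T cells that recognise them can be deleted or diverted. Most mTEC with Aire protein carry much MHC class II on their surface. Cells that have passed through the Aire stage can lower MHC class II and take on programs of other epithelia, such as cornifying, tuft or microfold cells, while MHCIIlo mTEC without such a history include immature and CCL21-producing cells. In these mice tamoxifen activates Cre only in cells that transcribe Aire at the pulse, and the Ai14 locus then stays red in them and their progeny. RFP- cells may therefore have expressed Aire before or after the pulse, or never, and tamoxifen, Cre and reporter are shared by all populations.

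Library totals were 7.93 to 12.93 M counts in RFP+ MHCIIlo, 10.35 to 13.8 M in RFP- MHCIIlo, 11.95 to 17.63 M in RFP+ MHCIIhi and 11.6 to 19.46 M in RFP- MHCIIhi cells. RFP+ MHCIIlo libraries were made from 19400 to 20500 cells and the others from at least 80500, so the input and this population cannot be told apart. RFP+ MHCIIlo replicate 1 stood apart from its group: its score on the first principal component, which held 86.8% of the variance among 500 variable genes, was -51, against -30.9 to -28.2 for the other libraries of its group and -59.3 to -49.5 for RFP- MHCIIlo libraries. RFP+ MHCIIlo replicate 4 stood apart on the fourth component, with a score of 18.8. Without both libraries 5617 of the 6693 genes called for gate dependence remained called.

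The gates matched their labels: 11 MHC class II genes summed to 3020 to 5760 and 5410 to 7920 CPM (counts per 1 M of the library total, TMM-scaled) in RFP+ and RFP- MHCIIlo libraries, and to 21000 to 22300 and 17400 to 19100 CPM in RFP+ and RFP- MHCIIhi libraries. Markers of other cell types differed between the populations, and their part in the results was not tested. The 16 thymocyte markers summed to 49.9 to 138 CPM in RFP+ and 38.7 to 75 CPM in RFP- MHCIIlo libraries, and to 108 to 184 CPM in RFP+ and 388 to 892 CPM in RFP- MHCIIhi libraries. The 10 markers of cortical thymic epithelium, for which the gate holds no marker, summed to 451 to 589, 1110 to 1360, 1430 to 1920 and 3470 to 5640 CPM in the same order of populations. The 10 mesenchymal markers were highest in RFP- MHCIIlo libraries, with 65.8 to 203, 499 to 1090, 153 to 182 and 257 to 316 CPM in that order. No marker of these 3 lists averaged 0 in any population. In bulk samples fewer cells of a type and less of its RNA per cell cannot be told apart.

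The 2 gates shared part of the RFP effect. In MHCIIlo cells, 5677 genes were called higher and 4452 lower in RFP+ than in RFP- libraries (edgeR quasi-likelihood test, adjusted p under 0.05), which is 51.6% of all tested genes. In MHCIIhi cells 4672 genes were higher and 4158 lower, or 45.0%. A gate dependence was called for 6693 genes, or 34.1%, with a positive sign in 3438 and a negative sign in 3255. The sign does not tell which gate had the larger effect, since a larger fall in MHCIIhi cells is also positive. Both effects were called for 5814 genes, which make up 57.4% of the MHCIIlo calls and 65.8% of the MHCIIhi calls. Among these 4871 had the same sign and 943, or 16.2%, opposite signs. Across the tested genes, which are not independent replicates, Spearman's rho of the 2 effects was 0.377 and Pearson's r was 0.373. The contrasts share no library, but all libraries entered 1 fit. The median effect over all tested genes was 0.07 in MHCIIlo and -0.02 in MHCIIhi cells on the log2 scale.

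**Figure D1:**
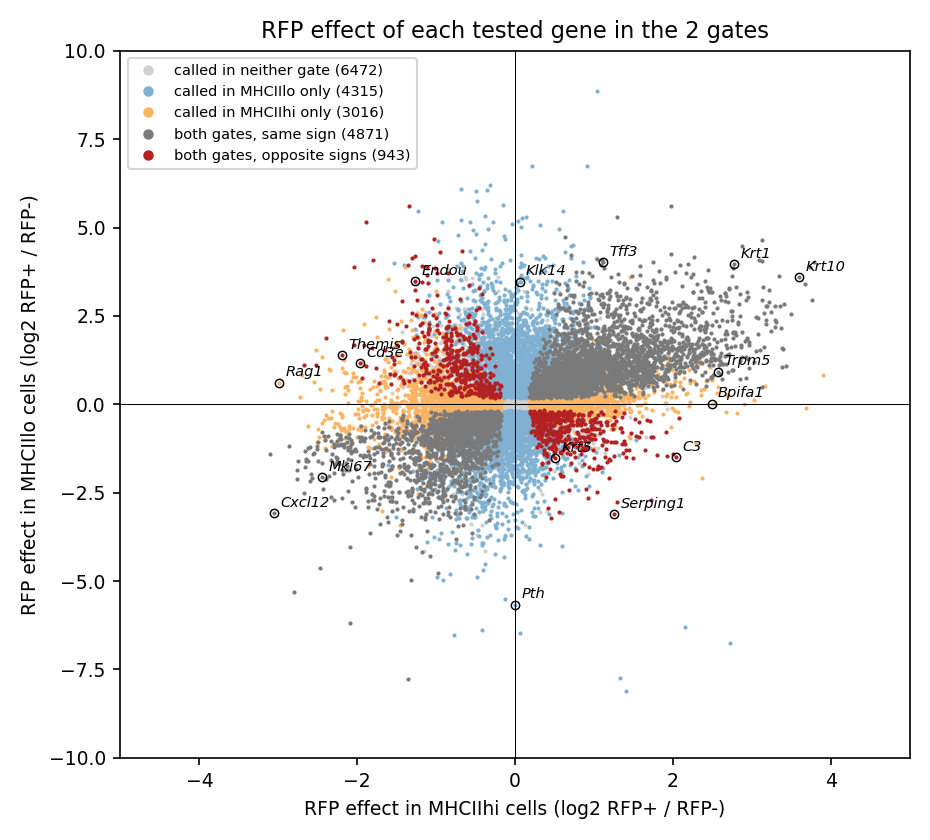
Each point is 1 of the 19617 tested genes, with its RFP effect in MHCIIhi cells on the horizontal axis and in MHCIIlo cells on the vertical axis (log2 RFP+ / RFP-). Colours give the class by called effects, circles the genes named on the plot. The 943 genes called with opposite signs occupy the upper left and lower right quadrants, with C3 and Serping1 at the lower right and Endou and Themis at the upper left.

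Sorted by class, 2912 genes were higher in RFP+ cells of both gates and 1959 were lower in both. Of these the gate dependence was called for 967 and 635, so the sign was shared while the size was not. Opposite signs took 2 forms. In 460 genes RFP+ cells were higher in MHCIIlo and lower in MHCIIhi, with median effects of 1.03 and -0.71, and in 483 they were lower in MHCIIlo and higher in MHCIIhi, with medians of -0.62 and 0.54. An effect called in 1 gate alone was more frequent than opposite signs: 2305 genes were higher and 2010 lower in MHCIIlo only, and 1277 were higher and 1739 lower in MHCIIhi only. The gate dependence itself was called for 1455, 1114, 632 and 757 of them, and only these are described as differing between gates. With limma-voom and sample weights, 57.7% and 64.4% of the genes higher and lower in MHCIIlo only kept their class. For MHCIIhi only these shares were 97.9% and 97.9%. Of the 6693 gate-dependent genes the effect was larger in size in MHCIIlo cells for 4305 and in MHCIIhi cells for 2388. The median SE was 0.18 in MHCIIlo and 0.17 in MHCIIhi cells. Both SE use 1 spread per gene shared by all 4 populations, so they do not compare the precision of the gates. Replicates correlated at 0.9495 to 0.9674 in RFP+ MHCIIlo, 0.9738 to 0.9809 in RFP- MHCIIlo and 0.9853 to 0.9905 in MHCIIhi libraries (log2 CPM).

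**Figure D2:**
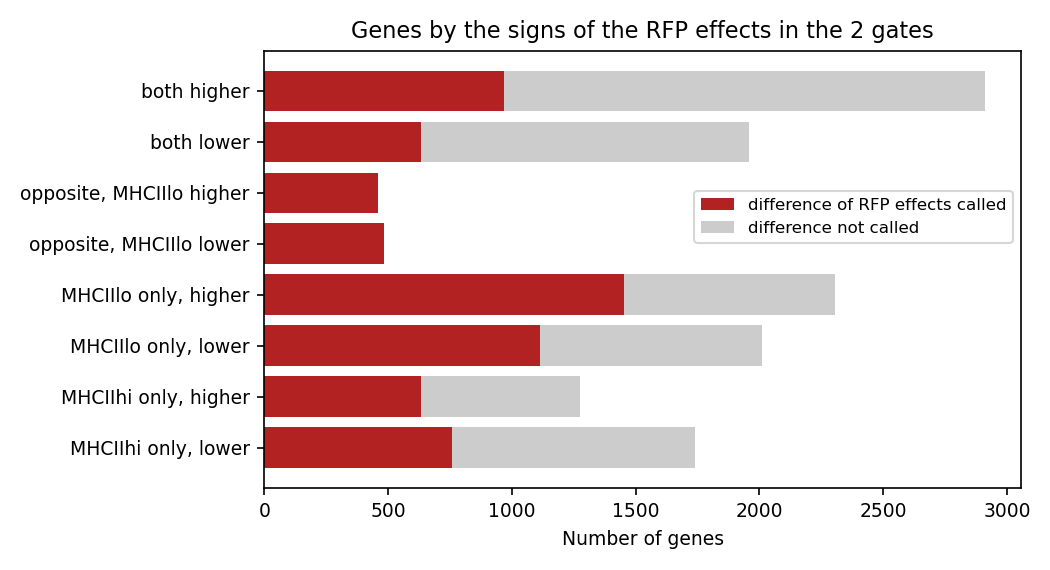
Bars give the number of genes in each class by the signs of the called RFP effects, with the red part called for gate dependence and the grey part not called. The 6472 genes called in neither gate are left out. All 460 and 483 genes with opposite signs are red, which follows nearly from the rule, since their gate dependence adds up both called effects; of the genes higher in both gates 967 of 2912 are red.

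Promoter sequences of 4 genes are shown because their genes stand for the classes: C3 fell in 1 gate and rose in the other, Themis did the reverse, Krt10 rose in both and Mki67 fell in both. They are RefSeq promoters, 250 bases before to 50 after the listed start, and capitals mark the TATA box core TATAAA searched on both strands (TTTATA where it lies on the other strand).
C3 (GRCm38.p6, chr17:57228087-57228386, minus strand): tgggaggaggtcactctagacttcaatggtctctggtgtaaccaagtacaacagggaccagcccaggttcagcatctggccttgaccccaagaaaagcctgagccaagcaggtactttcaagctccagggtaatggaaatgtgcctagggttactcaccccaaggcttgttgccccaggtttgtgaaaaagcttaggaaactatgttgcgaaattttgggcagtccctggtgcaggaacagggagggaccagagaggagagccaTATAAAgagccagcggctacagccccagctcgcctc
Themis (GRCm38.p6, chr10:28668110-28668409, plus strand): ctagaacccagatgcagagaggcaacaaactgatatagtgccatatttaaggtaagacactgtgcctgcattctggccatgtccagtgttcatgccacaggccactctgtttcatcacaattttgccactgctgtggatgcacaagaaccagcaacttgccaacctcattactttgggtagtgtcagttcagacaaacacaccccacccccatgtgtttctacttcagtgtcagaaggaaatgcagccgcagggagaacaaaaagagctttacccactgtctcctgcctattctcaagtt
Krt10 (GRCm38.p6, chr11:99389315-99389614, minus strand): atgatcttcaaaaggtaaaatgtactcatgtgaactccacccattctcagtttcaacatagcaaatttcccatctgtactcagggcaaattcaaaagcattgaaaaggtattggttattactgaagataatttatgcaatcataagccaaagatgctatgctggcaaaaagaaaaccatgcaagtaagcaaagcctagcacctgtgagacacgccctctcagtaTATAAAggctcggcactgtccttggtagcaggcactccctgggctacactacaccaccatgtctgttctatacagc
Mki67 (GRCm38.p6, chr7:135716330-135716629, minus strand): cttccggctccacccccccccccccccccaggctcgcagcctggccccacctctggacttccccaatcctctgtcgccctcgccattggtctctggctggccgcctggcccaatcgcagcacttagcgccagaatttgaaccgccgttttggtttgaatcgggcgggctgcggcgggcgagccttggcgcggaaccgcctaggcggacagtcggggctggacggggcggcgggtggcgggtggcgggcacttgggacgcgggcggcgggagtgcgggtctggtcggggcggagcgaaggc

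The TATAAA core begins 26 bases before the listed start in Krt10 and at position 15 in C3, counting the start base as 1, and the Themis and Mki67 windows hold none. Mki67 has 32 CpG dinucleotides in its window, C3 has 3, Krt10 has 2 and Themis has 1. With a chromosome left out whose sequences are not printed here, a promoter was matched for 38 of the 51 named genes. Of these 12, or 31.6%, hold the core on either strand, against 14.2% of 27025 promoters of the same length. The named genes were picked by their effects or with earlier results known. The 27025 promoters are not limited to tested genes and keep the chromosome that was left out. These 2 shares are therefore no test of the classes. The match is a description of these letters and says nothing of binding.

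Where the highest population averaged 20 CPM or more, the complement gene C3 led the genes that were lower in RFP+ MHCIIlo and higher in RFP+ MHCIIhi cells, ranked by the smaller of both effects. C3 (chr17:57203970-57228136, minus strand, GRCm38), the central component of complement, had 452, 515, 603 and 621 CPM in RFP+ MHCIIlo libraries, against 1526, 1379, 1910 and 1319 CPM in RFP- MHCIIlo libraries. It had 1321, 1224, 1289 and 1239 CPM in RFP+ MHCIIhi libraries, against 322, 296, 285 and 332 CPM in RFP- MHCIIhi libraries. The libraries did not overlap in either gate, and both pairs were far apart in opposite directions. The RFP effect was log2 -1.49 (SE 0.11) in MHCIIlo and 2.04 (SE 0.11) in MHCIIhi cells, and the difference was -3.52 (SE 0.16), with an adjusted p of 5.19e-13.

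Serping1 (chr2:84765387-84775444, minus strand), which encodes the C1 inhibitor of complement and contact activation, behaved alike. It had 9.83, 9.75, 20.7 and 15.2 CPM in RFP+ MHCIIlo libraries, against 118, 81.3, 198 and 83.9 CPM in RFP- MHCIIlo libraries, and it had 38.7, 34.7, 40.1 and 44.0 CPM in RFP+ MHCIIhi libraries, against 13.5, 19.0, 17.3 and 16.3 CPM in RFP- MHCIIhi libraries. Neither pair of groups overlapped, and RFP- MHCIIlo libraries 1 and 3 were the highest of all. Its RFP effect was log2 -3.10 (SE 0.24) in MHCIIlo and 1.26 (SE 0.23) in MHCIIhi cells, and the difference was -4.36 (SE 0.33), with an adjusted p of 6.62e-10. The mesenchymal marker sum was also highest in RFP- MHCIIlo libraries, as given above. In MHCIIhi cells that sum was lower in RFP+ libraries, at 153 to 182 against 257 to 316 CPM, where Serping1 was higher. The part of mesenchymal RNA in the level of Serping1 was not tested.

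Lrrn1, a leucine-rich repeat membrane protein, averaged 10.1 ± 2.36 CPM in RFP+ against 27.8 ± 1.38 CPM in RFP- cells of the MHCIIlo gate, and 19.3 ± 0.68 CPM in RFP+ against 5.11 ± 0.95 CPM in RFP- cells of the MHCIIhi gate (SD, n = 4 each). Its gate dependence was -3.38 (SE 0.20), adjusted p 2.76e-11. Itga1, the alpha chain of a collagen-binding integrin, followed with a gate dependence of -2.69 (SE 0.23), adjusted p 4.12e-09. Libraries did not overlap in MHCIIlo cells for 39.5% of tested genes and in MHCIIhi cells for 9800 of 19617. In both of these genes the 4 libraries of RFP+ and RFP- cells were separate in both gates, as was the case for 24.9% of all tested genes and 349 of the 483 genes of this class.

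Keratin 5, a basal keratin of stratified epithelium and a medullary marker, belonged to the same class. Krt5 had 478, 469, 476 and 458 CPM in RFP+ MHCIIlo libraries, against 1240, 1140, 1422 and 1567 CPM in RFP- MHCIIlo libraries, and 311, 252, 258 and 255 CPM in RFP+ MHCIIhi libraries, against 229.5, 174, 169.8 and 181 CPM in RFP- MHCIIhi libraries. The effect of the label was large and negative in MHCIIlo, small and positive in MHCIIhi cells, at log2 -1.51 (SE 0.11) and 0.51 (SE 0.10). Chga, the chromogranin of neuroendocrine granules, had 62.9, 63.9, 75.1 and 62.1 CPM in RFP+ MHCIIlo libraries, against 288, 195, 128 and 94.3 CPM in RFP- MHCIIlo libraries, and 38.3, 31.3, 31.6 and 42.7 CPM in RFP+ MHCIIhi libraries, against 19.3, 18.1, 22.2 and 20.8 CPM in RFP- MHCIIhi libraries. No pair overlapped, and RFP- MHCIIlo libraries varied most. Its gate dependence was -2.25 (SE 0.30), adjusted p 3.59e-06. Chga does not stand for its list. Of 12 neuroendocrine genes 7 rose and 3 fell in MHCIIlo cells, beside 28.9% and 22.7% of all tested genes. Chga alone had a negative gate dependence, beside 3 genes with a positive one, where all tested genes had 16.6% and 17.5%.

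**Figure D3:**
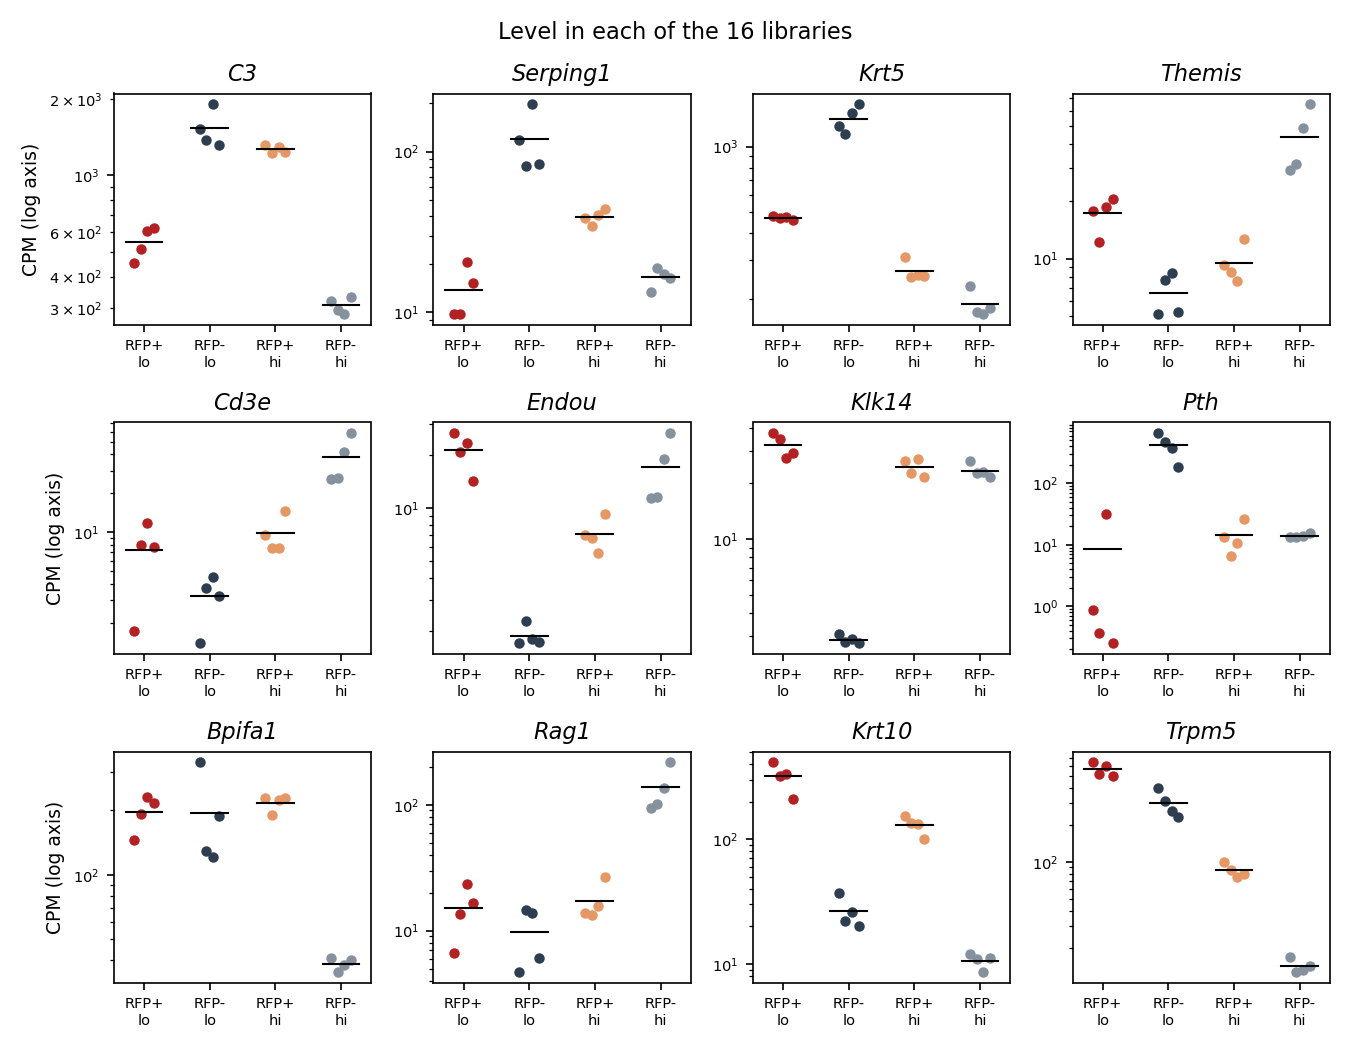
CPM of named genes in each library on a log axis, with a bar at the group mean; groups run RFP+ MHCIIlo, RFP- MHCIIlo, RFP+ MHCIIhi and RFP- MHCIIhi. C3 is lower in RFP+ than RFP- cells in MHCIIlo and higher in MHCIIhi, and Themis shows the reverse.

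Interferon-response genes as a group were lower with the label in MHCIIlo cells, and some were higher in MHCIIhi cells. Of 15 tested, 14 were lower in RFP+ than RFP- MHCIIlo cells, where 22.7% of all tested genes were lower, and 6 were higher and none lower in MHCIIhi cells, where 23.8% of all genes were higher. The gate dependence was negative for 14 of 15, beside 16.6% of all genes. The median effect of the list was -1.01 in MHCIIlo and 0.24 in MHCIIhi cells, against 0.07 and -0.02 over all tested genes. Isg15, a ubiquitin-like modifier, had effects of -1.08 in MHCIIlo and 0.93 in MHCIIhi cells, and Ifit1, which binds foreign RNA, of -0.58 and 1.23. Irf7, a transcription factor that amplifies the type I response, had -0.36 and 1.26. Oasl2 and Ifitm3, an oligoadenylate synthetase-like and a membrane restriction factor, had -0.92 and 0.82, and -1.01 and 0.65. Ifi44 and Mx2 fell in MHCIIlo cells only, by 2.25 and 1.71 on the log2 scale, and Rsad2 was called in neither gate. The summed level of the list was 1500 to 1840 CPM in RFP+ MHCIIlo, 3040 to 3310 in RFP- MHCIIlo, 1630 to 1780 in RFP+ MHCIIhi and 1110 to 1210 in RFP- MHCIIhi libraries, so RFP- cells of the 2 gates were farthest apart. These and other list members named as examples were chosen after their values were seen.

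Basal and immature mTEC genes also depended on the gate. Of 15 tested, 10 were lower and 3 higher in RFP+ MHCIIlo cells, 8 higher and 5 lower in RFP+ MHCIIhi cells, and 11 had a negative gate dependence and none a positive one. Over all tested genes 22.7% were lower and 28.9% higher in MHCIIlo, 23.8% higher and 21.2% lower in MHCIIhi cells, and 16.6% had a negative gate dependence. Trp63 (chr16:25683763-25892102, plus strand), the master regulator of stratified epithelium, had 134, 111, 113 and 108 CPM in RFP+ MHCIIlo libraries, against 348, 366, 416 and 392 CPM in RFP- MHCIIlo libraries. In MHCIIhi cells it had 121, 125, 124 and 107 CPM in RFP+ MHCIIhi libraries, against 112, 106, 101 and 110.3 CPM in RFP- MHCIIhi libraries. The MHCIIlo groups were separate and the MHCIIhi groups overlapped, and the effects were -1.71 (SE 0.08) and 0.15 (SE 0.08), with adjusted p of 6.93e-14 and 0.136. With limma-voom the MHCIIhi effect was called, at 0.17 with an adjusted p of 0.017. Krt14, the partner of keratin 5, fell by 2.17 in MHCIIlo cells and had an effect of 0.17 in MHCIIhi cells that was not called. Ly6a, the stem cell antigen Sca-1, had -0.37 in MHCIIlo and 2.07 in MHCIIhi cells. Claudins 3 and 4 rose in both gates, and Pdpn and Itga6 fell in both, with a larger fall in MHCIIlo cells.

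Genes of MHC class II presentation, which define the gate itself, had medians of -0.46 in MHCIIlo and 0.19 in MHCIIhi cells. Of 11 tested, 8 were lower and 1 higher in RFP+ MHCIIlo cells, beside 22.7% and 28.9% of all genes, and 5 higher and 1 lower in RFP+ MHCIIhi cells, beside 23.8% and 21.2%. The gate dependence was negative for 7 and positive for 1, beside 16.6% and 17.5% of all genes. With upper-quartile scaling 3 were higher and 3 lower in MHCIIhi cells and 2 had a positive gate dependence, and with the replicate block 2 were higher in MHCIIlo cells. H2-Aa, a class II alpha chain, had 700.2, 954, 1071 and 1118 CPM in RFP+ MHCIIlo libraries, against 1010, 1199, 1374 and 1695 CPM in RFP- MHCIIlo libraries, and 4975, 5114, 5772 and 5665 CPM in RFP+ MHCIIhi libraries, against 4755, 4586, 4569 and 4903 CPM in RFP- MHCIIhi libraries. The MHCIIlo groups overlapped, the MHCIIhi groups did not, and the gate dependence was -0.65 (SE 0.19), adjusted p 0.0101. H2-Ab1 and H2-Eb1 were called with opposite signs, at -0.81 and 0.44 and at -0.61 and 0.36. Ciita, the class II transactivator, fell in both gates, by 1.77 in MHCIIlo and 0.49 in MHCIIhi cells. Cd74, the invariant chain, had a gate dependence of -0.49 (SE 0.22) with an adjusted p of 0.0866, which ranged from 5e-04 to 0.159 over the alternatives. The count of 5 in MHCIIhi cells was 3 without RFP+ MHCIIhi replicate 4 and without RFP- MHCIIhi replicate 4.

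In the reverse class, higher in RFP+ MHCIIlo and lower in RFP+ MHCIIhi cells, 3 of the 5 leading genes were in the thymocyte list. Themis (chr10:28668360-28883818, plus strand), which tunes T cell receptor signalling in thymocytes, had 17.8, 12.2, 18.7 and 20.6 CPM in RFP+ MHCIIlo libraries, against 5.10, 7.72, 8.36 and 5.25 CPM in RFP- MHCIIlo libraries. It had 9.28, 8.52, 7.63 and 12.7 CPM in RFP+ MHCIIhi libraries, against 29.1, 31.3, 48.7 and 65.1 CPM in RFP- MHCIIhi libraries. Both pairs of groups were separate, and the highest values were in RFP- MHCIIhi libraries. The RFP effect was log2 1.39 (SE 0.25) in MHCIIlo and -2.20 (SE 0.22) in MHCIIhi cells, and the difference was 3.59 (SE 0.34), with an adjusted p of 1.66e-08.

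Lat, the adaptor downstream of the T cell receptor, had 2.27, 5.85, 9.97 and 6.38 CPM in RFP+ MHCIIlo libraries, against 1.17, 2.04, 2.30 and 1.98 CPM in RFP- MHCIIlo libraries, and 6.00, 5.66, 5.65 and 11.0 CPM in RFP+ MHCIIhi libraries, against 17.5, 21.0, 30.9 and 37.2 CPM in RFP- MHCIIhi libraries. The MHCIIlo groups overlapped because RFP+ replicate 1, at 2.27 CPM, lay below RFP- replicate 3, at 2.3 CPM. Its gate dependence was 3.60 (SE 0.47), adjusted p 2.33e-06. Cd3e, a chain of the T cell receptor complex, had 1.73, 7.92, 11.7 and 7.71 CPM in RFP+ MHCIIlo libraries, against 1.38, 3.73, 4.52 and 3.18 CPM in RFP- MHCIIlo libraries, and 9.59, 7.58, 7.52 and 14.5 CPM in RFP+ MHCIIhi libraries, against 25.7, 26.5, 41.5 and 58.6 CPM in RFP- MHCIIhi libraries. Its MHCIIlo groups overlapped as well, and the MHCIIlo effect of 1.16 (SE 0.42) was not called without RFP+ MHCIIlo replicate 3, when it was 0.80 with an adjusted p of 0.128, or without RFP- MHCIIlo replicate 1, when it was 0.93 with 0.0721, or with limma-voom, when it was 1.16 with 0.131. The gate dependence of 3.12 (SE 0.52), adjusted p 5.35e-05, kept an adjusted p of at most 0.000616 over the alternatives.

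Over the whole list of 16 thymocyte genes, 7 rose and 1 fell in RFP+ MHCIIlo cells, where 28.9% of all tested genes were higher, and 14 were lower and none higher in RFP+ MHCIIhi cells, beside 21.2% of all genes. The gate dependence was positive for 13, beside 17.5% of all genes, with a median of 2.90 against 0.04. The 7 calls in MHCIIlo cells were 2 without RFP+ MHCIIlo replicate 3, 4 without RFP- MHCIIlo replicate 1 and 3 without RFP- MHCIIlo replicate 4, and 2 with limma-voom. Cd8a and Cd8b1, the chains of the CD8 co-receptor, had effects of 1.11 and 1.12 in MHCIIlo and -2.52 and -2.67 in MHCIIhi cells. The CD45 gate had removed cells with surface CD45, and Ptprc, which encodes CD45, averaged 36.4 CPM in RFP+ and 21.1 CPM in RFP- MHCIIlo cells, and 21.9 CPM in RFP+ and 60.0 CPM in RFP- MHCIIhi cells.

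Endou (chr15:97711015-97731339, minus strand), a poly(U)-specific endoribonuclease, was not in the thymocyte list. It had 26.6, 20.8, 23.4 and 14.2 CPM in RFP+ MHCIIlo libraries, against 1.70, 2.29, 1.79 and 1.72 CPM in RFP- MHCIIlo libraries. It had 7.01, 6.77, 5.54 and 9.26 CPM in RFP+ MHCIIhi libraries, against 11.4, 11.6, 19.0 and 26.7 CPM in RFP- MHCIIhi libraries. The groups were separate in both gates, and RFP- MHCIIlo libraries were the lowest of all. The part of thymocyte RNA in these values was not tested. Its gate dependence of 4.75 (SE 0.38), adjusted p 1.27e-09, was the largest of the class among its 5 leading genes. Nek2, a kinase of centrosome separation, had 12.6, 15.2, 13.1 and 22.4 CPM in RFP+ MHCIIlo libraries, against 7.65, 4.58, 6.82 and 9.72 CPM in RFP- MHCIIlo libraries, and 9.20, 6.88, 8.29 and 9.05 CPM in RFP+ MHCIIhi libraries, against 24.1, 23.7, 23.8 and 24.6 CPM in RFP- MHCIIhi libraries, with a gate dependence of 2.68 (SE 0.26), adjusted p 3.12e-08. Groups were separate in both gates for 255 of the 460 genes of the class. By the rule, the highest of the 4 means in this class can lie only in RFP+ MHCIIlo or RFP- MHCIIhi cells, and it lay in RFP- MHCIIhi cells for 88.3% of the genes. In the opposite class it can lie only in RFP- MHCIIlo or RFP+ MHCIIhi cells, and it lay in RFP- MHCIIlo cells for 80.5%.

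**Figure D4:**
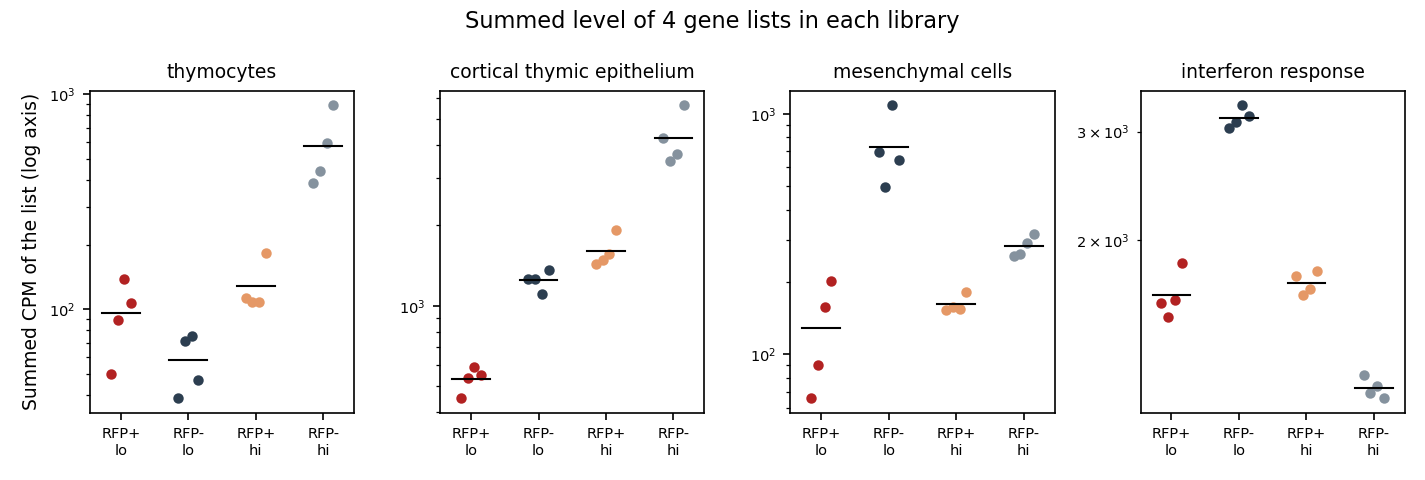
Summed CPM of 4 gene lists in each library on a log axis, with a bar at the group mean, for RFP+ MHCIIlo, RFP- MHCIIlo, RFP+ MHCIIhi and RFP- MHCIIhi cells. Thymocyte and cortical markers are highest in RFP- MHCIIhi libraries, at 388 to 892 and 3470 to 5640 CPM. Mesenchymal and interferon-response genes are highest in RFP- MHCIIlo libraries, at 499 to 1090 and 3040 to 3310 CPM.

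Genes that rose with the label in MHCIIlo cells only were led by proteases, a lipoxygenase and a globin. Klk14 (chr7:43690418-43695536, plus strand), a kallikrein protease of the outer epidermis, had 37.4, 34.5, 27.5 and 29.0 CPM in RFP+ MHCIIlo libraries, against 3.08, 2.80, 2.90 and 2.75 CPM in RFP- MHCIIlo libraries. It had 26.4, 22.6, 27.1 and 21.7 CPM in RFP+ MHCIIhi libraries, against 26.5, 22.8, 22.9 and 21.6 CPM in RFP- MHCIIhi libraries. The MHCIIlo groups were about 11.1-fold apart and the MHCIIhi groups overlapped, and the gate dependence was 3.42 (SE 0.18), adjusted p 4.88e-12. Alox12b, the 12R-lipoxygenase of the skin barrier, had 34.8, 26.1, 25.2 and 29.1 CPM in RFP+ MHCIIlo libraries, against 3.83, 2.21, 2.98 and 2.75 CPM in RFP- MHCIIlo libraries, and 35.1, 27.9, 30.0 and 28.8 CPM in RFP+ MHCIIhi libraries, against 32.0, 33.6, 30.9 and 24.3 CPM in RFP- MHCIIhi libraries. Only the RFP- MHCIIlo libraries were low, and its gate dependence was 3.29 (SE 0.20), adjusted p 4.15e-11. Klk5, a kallikrein upstream of other kallikreins, had a gate dependence of 3.69 (SE 0.48), adjusted p 2.25e-06, and with limma-voom a MHCIIhi effect of -0.32 that was called, with an adjusted p of 0.0128.

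Hbb-y, an embryonic globin, averaged 2.26 ± 1.33 CPM in RFP+ against 0.30 ± 0.26 CPM in RFP- cells of the MHCIIlo gate, and 18.7 ± 2.72 CPM in RFP+ against 25.0 ± 1.95 CPM in RFP- cells of the MHCIIhi gate (SD, n = 4 each). Its gate dependence of 3.31 (SE 0.51), adjusted p 1.86e-05, was 3.95 without RFP- MHCIIlo replicate 4. In MHCIIhi cells, where its libraries did not overlap, its effect was not called in 18 of 26 alternatives. It was called lower with limma-voom (adjusted p 0.000253), upper-quartile scaling (0.0288), the DESeq2 test (0.0294), the replicate block (0.0458), no filter (0.0343) and without RFP+ MHCIIlo replicate 1 (0.0178), 4 (0.0333) or both (0.00962), which would give it opposite signs. Kallikrein and globin genes can share reads with near copies, so their single values are uncertain. In this class the rule lets neither RFP+ MHCIIlo cells be lowest nor RFP- MHCIIlo cells be highest. Among its 1455 gate-dependent genes the lowest population was RFP- MHCIIlo for 82.2%, beside 30.7% of all tested genes, and the highest was RFP+ MHCIIlo for 44.9% and RFP- MHCIIhi for 37.3%, beside 25.7% and 30.0%.

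The leading falls in MHCIIlo cells only were in secreted and membrane proteins. Pth (chr7:113385580-113388570, minus strand), parathyroid hormone, had 0.864, 0.366, 32.2 and 0.249 CPM in RFP+ MHCIIlo libraries, against 660.2, 480.0, 381 and 187 CPM in RFP- MHCIIlo libraries. It had 13.2, 6.53, 10.9 and 26.4 CPM in RFP+ MHCIIhi libraries, against 13.5, 13.6, 13.8 and 15.5 CPM in RFP- MHCIIhi libraries. All RFP- MHCIIlo libraries reached at least 187 CPM and RFP+ MHCIIlo replicate 3 was far above its group, and the MHCIIhi groups overlapped. The gate dependence was -5.67 (SE 0.91), adjusted p 3.65e-05, and -9.82 without that library. Cav1, the scaffold of caveolae, had 2.16, 4.02, 4.05 and 4.15 CPM in RFP+ MHCIIlo libraries, against 109.5, 72.0, 178 and 66.3 CPM in RFP- MHCIIlo libraries, and 5.46, 5.599, 5.65 and 4.28 CPM in RFP+ MHCIIhi libraries, against 8.86, 6.65, 8.06 and 5.68 CPM in RFP- MHCIIhi libraries. The MHCIIlo groups were far apart, and the gate dependence was -4.40 (SE 0.40), adjusted p 1.07e-08. Its MHCIIhi effect was called lower without a filter (adjusted p 0.0174) and without RFP- MHCIIlo replicate 3 (0.0457). Igfbp6, a binding protein of insulin-like growth factor II, had 0.324, 3.05, 6.23 and 3.23 CPM in RFP+ MHCIIlo libraries, against 55.5, 26.3, 95.1 and 27.3 CPM in RFP- MHCIIlo libraries, with a gate dependence of -4.29 (SE 0.52), adjusted p 9.12e-07.

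Scgb3a1, a secretoglobin of airway epithelium, had 1.51, 2.68, 1.45 and 2.24 CPM in RFP+ MHCIIlo libraries, against 116, 5.94, 4.61 and 3.35 CPM in RFP- MHCIIlo libraries. A single RFP- MHCIIlo library carried most of its level, and the gate dependence of -4.62 (SE 1.18), adjusted p 0.00379, was -1.83 without it. With limma-voom and sample weights the adjusted p was 0.102. Of 10 mesenchymal markers 7 were lower in RFP+ MHCIIlo cells and none higher, beside 22.7% and 28.9% of all genes, 3 were lower in RFP+ MHCIIhi (1 without RFP+ MHCIIhi replicate 2 or 3 or without RFP- MHCIIhi replicate 1, and 5 with limma-voom), beside 21.2%, and 4 had a negative gate dependence, or 7 without RFP+ MHCIIlo replicate 4, beside 16.6%. The gate dependence was not called for 5 and was positive for 1, Thy1, which is also a thymocyte marker. Dcn, the proteoglycan decorin, fell by 3.52 in MHCIIlo cells and had -0.09 in MHCIIhi cells. Of 5 mesothelial genes 4 fell in MHCIIlo cells and all 5 had a negative gate dependence, with Upk3b at -4.96 in MHCIIlo cells. Of 9 endothelial genes 5 fell and 3 rose in MHCIIlo cells, 4 with a negative gate dependence, beside 1 positive one, and Kdr, a receptor of endothelial growth factor, had an effect of -4.13 in MHCIIlo cells and a gate dependence of -3.37. By the rule RFP+ MHCIIlo cells cannot be highest in this class, and RFP- MHCIIlo cells were highest for 87.4% of its 1114 gate-dependent genes, beside 26.6% of all tested genes.

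Genes that rose with the label in MHCIIhi cells only were led by airway genes. Bpifa1 (chr2:154142880-154149219, plus strand), a secreted airway protein that limits biofilm, had 145, 192, 231 and 215 CPM in RFP+ MHCIIlo libraries, against 336, 129, 121 and 188 CPM in RFP- MHCIIlo libraries. It had 227, 190.4, 224 and 227 CPM in RFP+ MHCIIhi libraries, against 41.1, 35.2, 38.0 and 40.2 CPM in RFP- MHCIIhi libraries. The MHCIIlo groups overlapped broadly while RFP- MHCIIhi libraries lay at about 5.61-fold less than RFP+ MHCIIhi ones, and the gate dependence was -2.47 (SE 0.30), adjusted p 8.12e-07. Cyp2f2, a cytochrome P450 of club cells, had 145, 183, 153 and 154 CPM in RFP+ MHCIIlo libraries, against 191, 109, 97.7 and 129 CPM in RFP- MHCIIlo libraries, and 81.2, 70.1, 67.0 and 57.8 CPM in RFP+ MHCIIhi libraries, against 12.6, 9.81, 10.1 and 9.82 CPM in RFP- MHCIIhi libraries. Its gate dependence was -2.42 (SE 0.22), adjusted p 1.2e-08. In MHCIIlo cells Cyp2f2 was called higher with the replicate block (0.31, adjusted p 0.0408), limma-voom (0.0393), no filter (0.0338) and without RFP- MHCIIlo replicate 1 (0.50, 0.00104), which would place it among genes higher in both gates. Without that library Bpifa1 was also called higher in MHCIIlo cells, at 0.42 with 0.0161. Mill1, an MHC class I-like molecule, and Ifi205, an interferon-induced DNA sensor family member, had -2.29 (SE 0.18), adjusted p 1e-09, and -2.21 (SE 0.41), adjusted p 0.000214. Mill1 was called lower in MHCIIlo cells without RFP+ MHCIIlo replicate 1 (-0.33, adjusted p 0.0223) and with mitochondrial and ribosomal RNA genes removed (-0.29, 0.0377). RFP+ MHCIIhi cells cannot be lowest in this class by the rule, and RFP- MHCIIhi cells were lowest for 85.6% of its 632 gate-dependent genes, beside 29.2% of all tested genes.

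Genes that fell with the label in MHCIIhi cells only were again led by thymocyte genes. Rag1 (chr2:101638282-101649501, minus strand), the recombinase that assembles antigen receptors, had 6.70, 13.7, 23.4 and 16.7 CPM in RFP+ MHCIIlo libraries, against 4.68, 14.5, 13.9 and 6.11 CPM in RFP- MHCIIlo libraries. It had 13.9, 13.2, 15.8 and 26.4 CPM in RFP+ MHCIIhi libraries, against 93.5, 101, 137 and 218 CPM in RFP- MHCIIhi libraries. The MHCIIlo groups overlapped, and all RFP- MHCIIhi libraries were far above the rest. Its gate dependence was 3.60 (SE 0.47), adjusted p 2.69e-06. Dntt, the terminal transferase of the same process, had 3.51 (SE 0.49), adjusted p 5.93e-06, and Thy1, a surface glycoprotein of thymocytes and stroma, had 2.46 (SE 0.36), adjusted p 1.24e-05. Their MHCIIlo effects were not all stable. That of Dntt was called higher with the replicate block (0.82, adjusted p 0.0136), without a filter (0.000141) and without RFP+ MHCIIlo replicate 1 (0.0464), RFP+ MHCIIhi replicate 4 (0.0453) or RFP- MHCIIhi replicate 4 (0.0481), and that of Rag1 without a filter (0.000705) and without RFP+ MHCIIlo replicate 1 (0.0432), which would give both opposite signs. Lefty2, an inhibitor of Nodal signalling, had 14.7, 11.0, 12.6 and 17.1 CPM in RFP+ MHCIIhi libraries, against 28.2, 24.5, 32.7 and 24.5 CPM in RFP- MHCIIhi libraries, while all its MHCIIlo libraries lay at or below 2.44 CPM. Its gate dependence of 2.49 (SE 0.75), adjusted p 0.0116, became 1.57 with an adjusted p of 0.121 without RFP+ MHCIIlo replicate 2. Its MHCIIlo effect was called higher without a filter (adjusted p 0.00637) and without RFP+ MHCIIlo replicate 1 (0.0104), 4 (0.0407) or both (0.00117), and its MHCIIhi effect was not called with the DESeq2 test (0.148). The rule keeps RFP+ MHCIIhi cells from being highest in this class, and RFP- MHCIIhi cells were highest for 90.2% of its 757 gate-dependent genes, beside 30.0% of all tested genes.

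Genes of cornified epithelium rose in both gates, and their rise was mostly larger in MHCIIlo cells. All 37 genes were higher in RFP+ MHCIIlo cells and 33 were higher and 1 lower in RFP+ MHCIIhi cells, with medians of 3.18 and 1.70. The gate dependence was positive for 28 and negative for 1. Over all tested genes 28.9% were higher in MHCIIlo, and 23.8% higher and 21.2% lower in MHCIIhi cells. A positive gate dependence was called for 17.5% and a negative one for 16.6%. Krt10, the keratin of suprabasal epidermis, had 414, 321, 333 and 209.5 CPM in RFP+ MHCIIlo libraries, against 37.2, 22.1, 25.9 and 20.3 CPM in RFP- MHCIIlo libraries. It had 152, 135, 132 and 101 CPM in RFP+ MHCIIhi libraries, against 12.0, 10.9, 8.60 and 11.1 CPM in RFP- MHCIIhi libraries. RFP+ and RFP- libraries did not overlap and were about 12.2 and 12.1-fold apart, and the gate dependence of 0.01 (SE 0.26), adjusted p 0.989, was not called. Its partner Krt1 rose more in MHCIIlo cells, by 3.96 (SE 0.19) against 2.78 (SE 0.18) in MHCIIhi cells. Calm4, a calmodulin-like protein of keratinocytes, and Lypd3, a surface protein of the suprabasal layers, rose by 3.62 (SE 0.16) and 3.31 (SE 0.12) in MHCIIlo and by 3.34 (SE 0.16) and 3.15 (SE 0.12) in MHCIIhi cells.

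Ivl, the envelope precursor involucrin, had 60.0, 58.4, 49.96 and 39.7 CPM in RFP+ MHCIIlo libraries, against 7.65, 5.17, 5.29 and 4.39 CPM in RFP- MHCIIlo libraries, and 19.6, 15.7, 15.6 and 12.6 CPM in RFP+ MHCIIhi libraries, against 4.50, 5.23, 4.91 and 4.71 CPM in RFP- MHCIIhi libraries. Its groups were separate in both gates, and the gate dependence was 1.50 (SE 0.23), adjusted p 2.49e-05. Within the list, barrier enzymes and envelope genes rose more in MHCIIlo cells, such as Klk13 (3.85 against 1.13), Casp14 (3.42 against 0.81) and Cdsn (3.02 against 0.64). Spink5, an inhibitor of kallikreins, was the gene with the negative gate dependence, at 2.19 in MHCIIlo and 3.29 in MHCIIhi cells, and Dsg1a, a desmosomal cadherin, had opposite signs, at 0.38 and -0.56. Summed over the list, RFP+ MHCIIlo libraries held 4880 to 6650 CPM, RFP- MHCIIlo 791 to 1070, RFP+ MHCIIhi 2250 to 2860 and RFP- MHCIIhi 773 to 868.

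Tuft cell genes rose in both gates, with the larger effect in MHCIIhi cells. All 32 were higher in RFP+ MHCIIlo cells and 31 in RFP+ MHCIIhi cells, beside 28.9% and 23.8% of all genes, with medians of 1.03 and 2.07. The gate dependence was negative for 22 and positive for none, beside 16.6% and 17.5% of all genes. Trpm5, the cation channel of taste and tuft cell signalling, had 646, 520.5, 599 and 494 CPM in RFP+ MHCIIlo libraries, against 394, 309.8, 259 and 231 CPM in RFP- MHCIIlo libraries. It had 100.2, 86.4, 75.6 and 78.9 CPM in RFP+ MHCIIhi libraries, against 17.0, 12.7, 13.2 and 14.2 CPM in RFP- MHCIIhi libraries. The groups were separate in both gates, the level was highest in MHCIIlo cells, and the effect was 0.92 (SE 0.13) in MHCIIlo and 2.57 (SE 0.15) in MHCIIhi cells. Pou2f3, the transcription factor tuft cells require, had a gate dependence of -0.90 (SE 0.18), adjusted p 0.000427, and Dclk1, a kinase used as a tuft marker, of -0.68 (SE 0.22), adjusted p 0.0173. Rgs13, a regulator of G protein signalling, had the most negative one, at 0.74 in MHCIIlo and 2.93 in MHCIIhi cells. In MHCIIlo cells the list already summed to 2470 to 3770 CPM in RFP- libraries beside 5490 to 7740 in RFP+ libraries, whereas MHCIIhi cells held 1070 to 1320 in RFP+ and 303 to 347 in RFP- libraries.

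Microfold genes followed tuft genes. Of 10 tested, 9 rose in RFP+ MHCIIlo and 8 in RFP+ MHCIIhi cells, beside 28.9% and 23.8% of all genes. A negative gate dependence was called for 6 and a positive one for 2, beside 16.6% and 17.5%. The medians of the list were 0.65 and 1.10. Gp2, the receptor of microfold cells for bacteria, had 1057, 1013, 983 and 959 CPM in RFP+ MHCIIlo libraries, against 619.5, 631, 596 and 609 CPM in RFP- MHCIIlo libraries. It had 311, 318, 321 and 266 CPM in RFP+ MHCIIhi libraries, against 81.0, 80.02, 63.7 and 91.8 CPM in RFP- MHCIIhi libraries. The groups were separate in both gates, and the effect was 0.71 (SE 0.09) in MHCIIlo and 1.94 (SE 0.09) in MHCIIhi cells. Spib, a transcription factor of microfold cells, rose in MHCIIlo cells only, by 0.52.

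**Figure D5:**
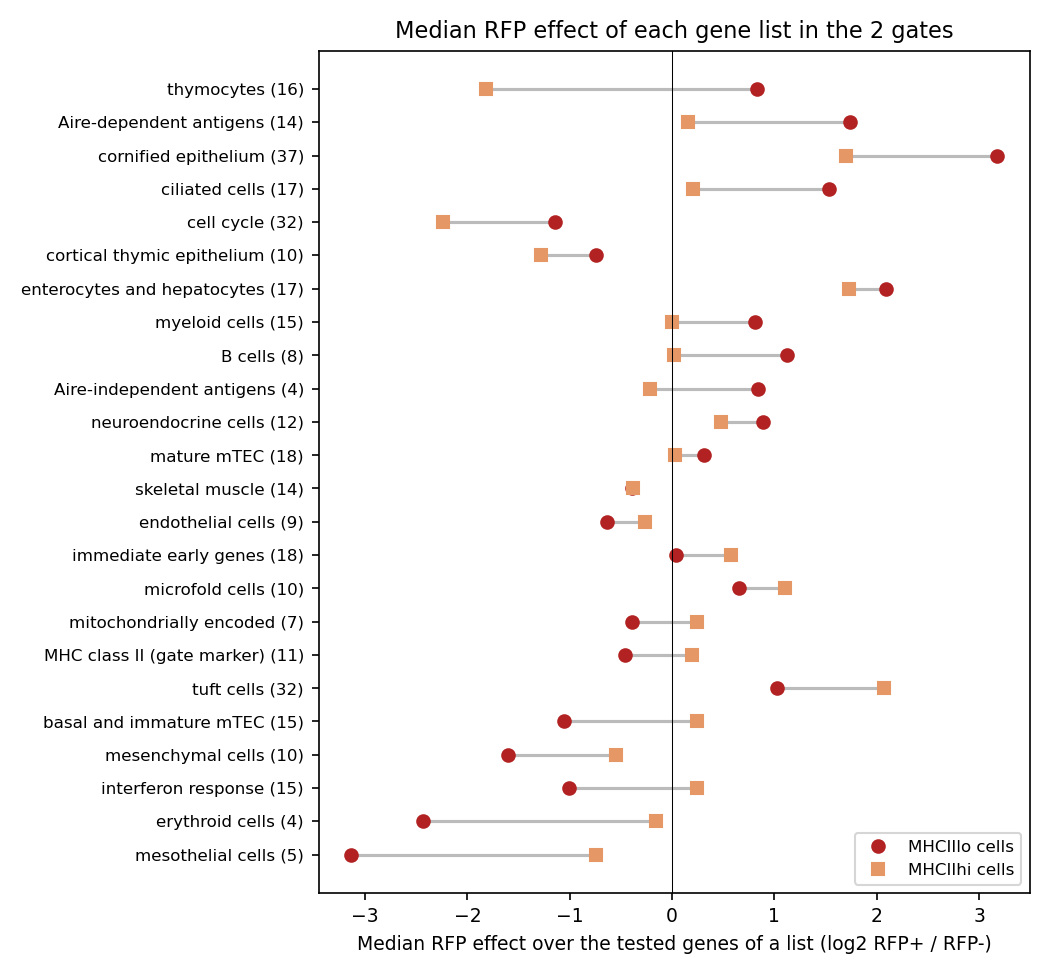
Median RFP effect over the tested genes of each list (log2 RFP+ / RFP-) in MHCIIlo and MHCIIhi cells, with the number of tested genes in brackets. Cornified epithelium lies at 3.18 and 1.70, tuft cells at 1.03 and 2.07, the interferon response at -1.01 and 0.24 and thymocytes at 0.83 and -1.82.

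Ciliated cell genes rose mainly in MHCIIlo cells. Of 17 tested, 15 were higher and 1 lower in RFP+ MHCIIlo cells, beside 28.9% and 22.7% of all genes, and 8 were higher and 4 lower in RFP+ MHCIIhi cells, beside 23.8% and 21.2%. A positive gate dependence was called for 13 and a negative one for 1, beside 17.5% and 16.6% of all genes, the last being Dnah11, a dynein heavy chain, at -1.27. Foxj1, the master regulator of motile cilia, had 110.1, 105, 114 and 102 CPM in RFP+ MHCIIlo libraries, against 36.9, 35.2, 27.5 and 32.6 CPM in RFP- MHCIIlo libraries. It had 51.0, 45.7, 42.9 and 37.8 CPM in RFP+ MHCIIhi libraries, against 30.8, 24.8, 30.2 and 31.6 CPM in RFP- MHCIIhi libraries. No libraries overlapped within a gate and the MHCIIlo effect was the larger, with a gate dependence of 1.11 (SE 0.14), adjusted p 2e-06. Deup1 and Mcidas, which act in the multiplication of centrioles, had opposite signs, at 1.56 and -0.57 and at 1.10 and -0.86.

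Enterocyte and hepatocyte genes rose in both gates, 17 of 17 in MHCIIlo and 15 of 17 in MHCIIhi cells, beside 28.9% and 23.8% of all genes. The medians of the list were 2.09 and 1.73. Ttr, transthyretin, had 90.3, 105, 61.6 and 91.3 CPM in RFP+ MHCIIlo libraries, against 4.25, 2.80, 3.58 and 4.99 CPM in RFP- MHCIIlo libraries. It had 106, 129, 123 and 136 CPM in RFP+ MHCIIhi libraries, against 16.6, 15.6, 14.7 and 20.0 CPM in RFP- MHCIIhi libraries. RFP- MHCIIlo libraries were the lowest, both pairs were separate, and the gate dependence was 1.60 (SE 0.23), adjusted p 6.36e-06. Gate dependence was positive for 9 and negative for 3 genes of the list, beside 17.5% and 16.6% of all genes. The negative ones included Muc13, a membrane mucin, at 1.88 in MHCIIlo and 2.93 in MHCIIhi cells.

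Antigens known from mice to require Aire rose mostly in MHCIIlo cells. Of 14 tested, 11 were higher and 1 lower in RFP+ MHCIIlo cells, beside 28.9% and 22.7% of all genes, and 11 had a positive gate dependence, beside 17.5%. In RFP+ MHCIIhi cells 5 were higher and 3 lower, beside 23.8% and 21.2% of all genes; 1 was lower without RFP+ MHCIIhi replicate 2, 5 with upper-quartile scaling or without RFP+ MHCIIlo replicates 1 and 4, and 6 with limma-voom. Tff3, a trefoil peptide of mucous epithelia, had 41.0, 59.1, 82.4 and 84.2 CPM in RFP+ MHCIIlo libraries, against 4.25, 1.61, 4.01 and 6.71 CPM in RFP- MHCIIlo libraries. It had 54.6, 54.0, 49.7 and 52.0 CPM in RFP+ MHCIIhi libraries, against 22.3, 26.1, 27.1 and 21.6 CPM in RFP- MHCIIhi libraries. Groups did not overlap within either gate, with RFP- MHCIIlo libraries lowest, and the gate dependence was 2.89 (SE 0.31), adjusted p 1.47e-07. Ins2, insulin, had 1.41, 1.58, 2.39 and 2.16 CPM in RFP+ MHCIIlo libraries, against 0.213, 0, 0.0853 and 0.516 CPM in RFP- MHCIIlo libraries, and 13.4, 11.8, 12.7 and 14.3 CPM in RFP+ MHCIIhi libraries, against 4.73, 5.03, 7.67 and 5.68 CPM in RFP- MHCIIhi libraries. Its gate dependence of 1.99 (SE 0.55), adjusted p 0.00563, was 3.06 without RFP- MHCIIlo replicate 4, and counts in RFP- MHCIIlo libraries were near 0. S100a8, a calprotectin subunit, had opposite signs, at 2.17 and -0.76. Among 4 antigens held not to require Aire, Gad1 had 1.06 and -0.69, Crp -2.19 and 0.24, and Resp18 1.20 and 2.29 in MHCIIlo and MHCIIhi cells, and Csrp3 fell in MHCIIhi cells only.

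Aire itself was called in neither gate, and in MHCIIhi cells that depended on the setting. Aire (chr10:78030022-78043610, minus strand) had 13.9, 68.0, 54.4 and 66.9 CPM in RFP+ MHCIIlo libraries, against 16.3, 23.8, 42.6 and 69.0 CPM in RFP- MHCIIlo libraries. It had 543, 622, 588 and 594 CPM in RFP+ MHCIIhi libraries, against 950.1, 1041, 1007 and 916 CPM in RFP- MHCIIhi libraries. MHCIIlo groups overlapped over nearly their whole range, whereas every RFP- MHCIIhi library exceeded every RFP+ MHCIIhi library. The effects were 0.42 (SE 0.34) with an adjusted p of 0.313 in MHCIIlo, and -0.74 (SE 0.31) with 0.0571 in MHCIIhi cells. Both SE use 1 spread of the gene shared by all 4 populations, so the MHCIIhi test also carries the scatter of the MHCIIlo libraries. With limma-voom and sample weights the SE in MHCIIhi cells was 0.138. Over the alternatives the MHCIIhi effect lay between -0.82 and -0.71 and was not called in 15 of 26. It was called with limma-voom (adjusted p 4.08e-05), the replicate block (-0.75, 0.0202), upper-quartile scaling (0.032), DESeq2 size factors (0.047), thinned libraries (0.042), no filter (1.09e-07) and without RFP+ MHCIIlo replicate 1 (0.00815), 4 (0.0449) or both (0.00637). Leaving out replicate 1 (0.0317) or 4 (0.0279) of RFP- MHCIIlo also gave a call. In MHCIIlo cells Aire was called without a filter (0.00815), without RFP+ MHCIIlo replicate 1 (0.0207) and when replicate 4 of RFP- MHCIIlo was left out (0.0291). The gate dependence of 1.16 (SE 0.46), adjusted p 0.0544, lay beside the threshold, ranged from 0.91 to 1.61 over the alternatives with adjusted p of 2.3e-08 to 0.141, and was 1.46 with an adjusted p of 0.00155 without RFP+ MHCIIlo replicate 1, the library that stood apart, and 1.61 with 0.00475 without RFP- MHCIIlo replicate 4. Fezf2, a second regulator of antigen expression in mTEC, had a gate dependence of 0.41 (SE 0.14), adjusted p 0.0322, with a range of the adjusted p of 0.00573 to 0.0917 and a call in 16 of 26 alternatives. For Cd80, a costimulatory ligand that rose in both gates, it was 0.40 (SE 0.15), adjusted p 0.0402, with a range of 0.00731 to 0.187 and a call in 12 of 26.

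Of the 18 genes of mature mTEC, 7 rose and 2 fell in MHCIIlo cells, beside 28.9% and 22.7% of all genes, and 8 rose and 2 fell in MHCIIhi cells, beside 23.8% and 21.2%. The 2 falls in MHCIIhi cells were 4 with the replicate block, with upper-quartile scaling, without a filter and with limma-voom. The 5 positive and 2 negative gate dependences included those of Cd83, which stabilises surface MHC class II, and Pdcd1lg2, a ligand of PD-1. Cd83 had 0.66 in MHCIIlo cells, which was not called, and -1.78 in MHCIIhi cells. Pdcd1lg2 had -0.57 and 0.82. The count of 5 was 2 or 3 when RFP+ MHCIIlo replicate 2 or 3, RFP- MHCIIlo replicate 1, RFP+ MHCIIhi replicate 2, 3 or 4 or RFP- MHCIIhi replicate 1, 2 or 3 was left out. Ccl22, a chemokine that draws T cells with CCR4, rose in both gates, by 1.89 and 2.33.

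Cell-cycle genes fell in both gates and mostly fell further in MHCIIhi cells. Of 32 tested, 28 were lower in RFP+ MHCIIlo and 32 in RFP+ MHCIIhi cells, beside 22.7% and 21.2% of all genes, with medians of -1.14 and -2.24. A positive gate dependence was called for 22, or 14 without RFP+ MHCIIlo replicate 3, beside 17.5% of all genes. Mki67, a marker of cycling cells, had 10.5, 25.8, 43.6 and 34.5 CPM in RFP+ MHCIIlo libraries, against 72.4, 88.9, 158 and 159.6 CPM in RFP- MHCIIlo libraries. It had 86.8, 87.7, 88.1 and 89.4 CPM in RFP+ MHCIIhi libraries, against 464, 497, 498 and 459 CPM in RFP- MHCIIhi libraries. Neither gate had overlapping groups, RFP+ MHCIIlo replicate 1 was lowest, and the gate dependence of 0.39 (SE 0.35), adjusted p 0.422, was not called. Replication helicase genes Mcm4, Mcm5 and Mcm6 fell by 1.10, 1.69 and 1.31 in MHCIIlo and by 1.11, 1.67 and 1.35 in MHCIIhi cells, and their gate dependence was not called. Top2a, the topoisomerase of mitotic chromosomes, fell more in MHCIIhi cells, at -1.23 in MHCIIlo and -2.62 in MHCIIhi cells, and Aurka, a mitotic kinase, fell in MHCIIhi cells only, with -0.17 and -1.93.

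The remaining genes lower in both gates were led by a chemokine, a sodium channel and an intermediate filament protein. Cxcl12, a chemokine of stromal cells that is high in cortical epithelium, had 6.16, 14.0, 9.24 and 18.1 CPM in RFP+ MHCIIlo libraries, against 92.6, 101, 85.7 and 124 CPM in RFP- MHCIIlo libraries. It had 16.1, 18.6, 17.0 and 32.3 CPM in RFP+ MHCIIhi libraries, against 159, 140.4, 153 and 243 CPM in RFP- MHCIIhi libraries. Both pairs were separate, about 8.39 and 8.31-fold apart, and the gate dependence of -0.01 (SE 0.33), adjusted p 0.981, was not called. Of the 10 cortical markers 7 were lower and 2 higher in RFP+ MHCIIlo cells, beside 22.7% and 28.9% of all genes. In RFP+ MHCIIhi cells 9 were lower, beside 21.2%. A positive gate dependence was called for 6, beside 17.5%, among them Psmb11, the thymoproteasome subunit, at -1.41 and -3.11. Scn1a, a sodium channel of neurons, had a gate dependence of -2.52 (SE 0.55), adjusted p 0.000942, and -4.03 without RFP+ MHCIIlo replicate 4. Synm, the intermediate filament protein synemin, had -2.65 (SE 0.17) and -2.19 (SE 0.16) on the log2 scale in MHCIIlo and MHCIIhi cells. Its gate dependence was called without a filter (-0.49, adjusted p 0.0232) and without RFP- MHCIIhi replicate 4 (-0.70, 0.0086).

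Other lists were mixed, and their shares are to be read beside 28.9% of all genes higher and 22.7% lower in MHCIIlo, 23.8% higher and 21.2% lower in MHCIIhi cells, and 17.5% and 16.6% with a positive and a negative gate dependence. Of 18 immediate early genes, 6 rose and 5 fell in MHCIIlo and 13 rose in MHCIIhi cells, and 10 had a negative gate dependence, such as Atf3 at -0.44 and 0.96. Of 7 mitochondrially encoded genes that could be tested, 6 were lower in RFP+ MHCIIlo and 3 higher in RFP+ MHCIIhi cells, and 6 had a negative gate dependence. Mitochondrial ribosomal RNA took 31.4 to 38.5% of counts in RFP+ MHCIIlo, 39.2 to 45.9% in RFP- MHCIIlo, 29.3 to 32.7% in RFP+ MHCIIhi and 32.3 to 35.8% in RFP- MHCIIhi libraries. Of 12 neuroendocrine genes 7 rose and 3 fell in MHCIIlo and 5 rose and 1 fell in MHCIIhi cells, with 3 positive gate dependences and 1 negative, that of Chga. Of 14 skeletal muscle genes 2 rose and 4 fell in MHCIIlo and 1 rose and 5 fell in MHCIIhi cells, with 3 positive gate dependences and 2 negative. Myeloid genes rose in 8 of 15 cases in MHCIIlo cells (4 with limma-voom), 4 rose and 2 fell in MHCIIhi cells, and 5 had a positive gate dependence, or 9 without RFP+ MHCIIlo replicate 1. B cell genes rose in 4 of 8 cases in MHCIIlo cells, 1 rose and 1 fell in MHCIIhi cells, and 3 had a positive gate dependence. Of 4 erythroid genes 3 fell in MHCIIlo and 1 in MHCIIhi cells, with 2 negative gate dependences.

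The classes also differed in features that the class rule does not name. The level is not independent of the sorting, since the low-count filter and the tests use the same counts. The median level over all libraries was 35.1 CPM in genes lower in RFP+ MHCIIlo and higher in RFP+ MHCIIhi cells, 8.15 in the reverse class, 19.4 in genes higher in both gates and 3.11 in genes called in neither gate, against 9.09 over all tested genes. The part of the level in the calls was not tested. Protein-coding genes made up 96.5% and 94.1% of the 2 opposite classes, 96.7% of the genes lower in both gates, 91.9% of those higher in both and 75.5% of the genes called in neither gate, against 85.6% of all. The median gene length was 32209 and 31485 bp in the 2 opposite classes, 30510 bp in genes lower in both gates, 25294 bp in genes lower in MHCIIlo only, 18812 bp in genes higher in both gates and 19278 bp over all, so long genes were not particular to the opposite classes. The nearest protein-coding neighbour of a gene higher in both gates was in the same class in 27.1% of cases, while this class held 15.9% of tested protein-coding genes. For the 2 opposite classes these shares were 5.77% beside 2.58% and 5.36% beside 2.78%.

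The edges of the classes are soft. Pcp4, a calmodulin-binding peptide, was the last gene inside the opposite classes, with a MHCIIhi effect of -0.37 and an adjusted p of 0.0488, and Lrp1b, a lipoprotein receptor relative, was the first outside them, at 0.37 with 0.0501. In 190 of the 6472 genes called in neither gate the gate dependence was called. In all 190 the 2 uncalled effects had opposite signs. That follows nearly from the rule, since uncalled effects of the same sign would partly cancel in the difference. Hspa2, a heat shock protein, had 0.39 in MHCIIlo and -0.33 in MHCIIhi cells, and Myrf, a myelin regulatory factor, had -0.54 and 0.39.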

How the data were processed

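RNA was measured by sequencing in 16 libraries, 4 for each of 4 sorted populations, with each library made from pooled mice. The deposited values are raw whole read counts per gene made by the authors, and the submitters' processing notes name STAR, DESeq2 and GRCm38; versions, the counting program, its strand setting and the annotation release were not given in the sources used here. Gene names and coordinates were taken from GENCODE M21 (GRCm38), and promoters from RefSeq (GRCm38.p6). A symbol was found for 42548 of 43432 gene identifiers; the rest held 0.0976% of counts, and 56 shared a symbol.

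From the counts, edgeR 4.0.16 in R 4.3.3 gave TMM scaling and 1 quasi-likelihood fit of all 16 libraries, after filterByExpr by population with a minimum count of 10 and a minimum total of 15. The contrasts were RFP+ against RFP- in MHCIIlo, the same in MHCIIhi, and the first minus the second. P-values were adjusted by Benjamini-Hochberg over the 19617 tested genes, with a threshold of 0.05. CPM are counts per 1 M of a library's TMM-scaled total, and CPM are compared only within a gene. The scripts were tested on simulated data with added gate dependences. The test recovered 18% of 1.5-fold, 72% of 2-fold and 98% of 4-fold ones, so a gate dependence that was not called does not show equal effects. No 2 libraries of the same population agreed within sampling noise. Labels call the libraries of a population biological replicates. Deviations of the same-number RFP+ and RFP- MHCIIlo libraries from their group means correlated at 0.321, 0.123, 0.133 and 0.159, so from the data the numbers pair these, and the blocked MHCIIlo values stand beside the calls they change; in MHCIIhi cells the correlations were 0.269, 0.157, -0.0682 and 0.21.

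Named genes were ranked among those that averaged 20 CPM or more in their highest population: 5 per direction for opposite signs and 3 per direction for the same sign, by the smaller of both effects, and 4 per direction for 1 gate only, by the size of the difference. To these were added 20 fixed genes. The values of 1 gene that the rule names are not reported here. The genes, the 24 lists and the grouping were chosen with earlier results of these data known. Alternatives were DESeq2 1.42.0 with its size factors, limma 3.58.1 voom with sample weights, other scalings and filters, libraries thinned to the smallest total, a block for the replicate number, stricter calls, and leaving out libraries.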

Additional observations from a re-analysis of the deposited data

Results flagged for a closer look

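The RFP effect differed between the gates, by the test of the difference itself, in 43 of the named genes, and the log2 difference of MHCIIlo minus MHCIIhi is given here for 42 of them. Among genes of opposite sign it was 4.75 for Endou, 3.60 for Lat, 3.59 for Themis, 3.12 for Cd3e and 2.68 for Nek2, and -4.36 for Serping1, -3.52 for C3, -3.38 for Lrrn1 and -2.69 for Itga1. Among genes called in MHCIIlo only it was 3.69 for Klk5, 3.42 for Klk14, 3.31 for Hbb-y and 3.29 for Alox12b, and -5.67 for Pth, -4.62 for Scgb3a1, -4.40 for Cav1 and -4.29 for Igfbp6. Among genes called in MHCIIhi only it was -2.47 for Bpifa1, -2.42 for Cyp2f2, -2.29 for Mill1 and -2.21 for Ifi205, and 3.60 for Rag1, 3.51 for Dntt, 2.49 for Lefty2 and 2.46 for Thy1.

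The difference was -2.52 for Scn1a, which fell in both gates. Among the other named genes it was 2.89 for Tff3, 1.99 for Ins2, 1.60 for Ttr, 1.50 for Ivl, 1.18 for Krt1, 1.11 for Foxj1, 0.41 for Fezf2 and 0.40 for Cd80. It was -2.25 for Chga, -2.02 for Krt5, -1.86 for Trp63, -1.65 for Trpm5, -1.23 for Gp2, -0.90 for Pou2f3, -0.68 for Dclk1 and -0.65 for H2-Aa.

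In 15 of 200 sets of 4 libraries 1 library lay far from the other 3 by Dixon's test, where chance gives about 1 in 20 sets. In RFP+ MHCIIlo cells these were replicate 3 for Pth at 32.2 CPM and for Chga at 75.1 CPM, and replicate 1 for Cav1 at 2.16 CPM and for Calm4 at 218 CPM. In RFP- MHCIIlo cells they were replicate 1 for Scgb3a1 at 116 CPM and replicate 2 for Endou at 2.29 CPM. In RFP+ MHCIIhi cells they were replicate 4 for Lat at 11.0, Cav1 at 4.28, Dntt at 20.0 and Cxcl12 at 32.3 CPM, replicate 1 for Lypd3 at 40.4 and Krt5 at 311 CPM, and replicate 2 for Bpifa1 at 190 CPM. In RFP- MHCIIhi cells they were replicate 4 for Pth at 15.5 CPM and replicate 1 for Cyp2f2 at 12.6 CPM.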

How the results depend on the processing

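Leaving out 1 library at a time gave 2883 to 3754 genes with a positive and 2993 to 3433 with a negative gate dependence, 339 to 573 genes of opposite sign that were higher in RFP+ MHCIIlo cells and 413 to 520 that were lower. Without RFP+ MHCIIlo replicates 1 and 4 these counts were 3327, 3257, 553 and 469, and 83.9% of the gate-dependent genes remained called. With the replicate block 97.8% of them remained, and among named genes it changed the call of the gate dependence for Aire, at 1.17 with an adjusted p of 0.0216, and Cd74, at -0.504 with 0.049, and for no other. The main fit had no block, because no label says that a number marks a shared pool. By correlation most numbers did pair: 19 of 24 same-number pairs of libraries correlated above 0.1, against 2 of 72 other pairs. Of 16 libraries, 14 correlated best with their own number. All main tests, also those within MHCIIlo cells, leave out this pairing, and the blocked values stand as alternatives. Positive calls were 51.4% of the gate-dependent genes, 59.8% with upper-quartile scaling and 44.2% with mitochondrial and ribosomal RNA genes removed. Without RFP+ MHCIIlo replicates 1 and 4, 67.7% and 70.5% of genes higher and lower in MHCIIlo only kept their class. For MHCIIhi only these shares were 89.4% and 88.8%. With upper-quartile scaling the shares were 92.2%, 84.6%, 74.3% and 98.8% in the same order. Of the genes of opposite sign, higher and lower in RFP+ MHCIIlo cells, at least 72.6% and 83.9% kept their class with 1 library left out. They were 74.8% and 90.3% with limma-voom, and 73.5% and 82.4% with thinned libraries.

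At an adjusted p under 0.01 there were 2118 genes with a positive gate dependence, 220 and 303 of opposite sign, higher and lower in RFP+ MHCIIlo cells, and 488 gate-dependent genes lower in MHCIIhi only. Asking for more than 2-fold left 2040 positive and 1495 negative gate dependences, 2908 higher and 1737 lower in MHCIIlo, 1686 higher and 1156 lower in MHCIIhi, 961 higher and 370 lower in both, 81 and 36 of opposite sign, and 256 gate-dependent genes higher and 305 lower in MHCIIhi only. The construction of both rules makes fewer calls.

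Effects near 0 that were not called with all libraries changed sign. The MHCIIhi effect of Alox12b was -0.012 with DESeq2 size factors, -0.074 with upper-quartile scaling, -0.011 with the DESeq2 test, -0.026 with voom, -0.09 with thinned libraries and -0.086 to 0.066 with a library left out. That of Klk14 was -0.028 with upper-quartile scaling. Those of Pth and Fezf2 were 0.01 and 0.007 with mitochondrial and ribosomal RNA genes removed, 0.024 each without a filter, 0.001 each with the block or without RFP+ MHCIIlo replicates 1 and 4, and -0.479 to 0.245 and -0.073 to 0.031 with a library left out. The gate dependence of Cxcl12 was 0.066 with upper-quartile scaling and -0.325 to 0.264 with a library left out. That of Krt10 was -0.061 with those RNA genes removed, -0.022 without a filter, -0.066 with thinned libraries and -0.145 to 0.206 with a library left out. The MHCIIlo effect of Bpifa1 was -0.044 with those RNA genes removed and -0.151 to 0.419 with a library left out. It was called at 0.419, with an adjusted p of 0.0161, without RFP- MHCIIlo replicate 1. That of Ifi205 was 0.088 without RFP+ MHCIIlo replicates 1 and 4 and -0.469 to 0.135 with a library left out. The causes were not tested. Many list counts of 4 or fewer moved by over 1.5 times with a single library left out, and genes at a few counts per library are limited by depth.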
